A study of Mus musculus with 3 samples.

Results

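Transcripts of Ccl2, Ccl7, Cx3cl1, Csf1 and Ccl20, genes for ligands that draw in or sustain monocytes, macrophages and related leukocytes, were examined in spheroids of 4T1 cells. The genes were chosen by symbol, and every transcript carrying 1 of the 5 symbols was taken, which gave 8 RefSeq transcripts for 5 of the 24402 gene symbols in the data. Of the 5 genes, 4 passed an FPKM of 1 somewhere in the 3 libraries, as did 11324 of all symbols, and Ccl20 did not. FPKM is the number of sequenced fragments scaled by transcript length and by the size of the library. Levels are set side by side on this scale, which does not adjust for differences in composition between libraries.

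4T1 is a mouse breast cancer line of Balb/c origin, and its cancer stem cell spheroids (CSCsp) were grown for 7 days in serum-free medium without attachment and kept on a 40 μm strainer. RNA was sequenced from CSCsp after co-culture with splenocytes of reinforced activation (R), after co-culture with tumor antigen primed splenocytes (P) and without co-culture (N), with 1 library per condition made from RNA pooled over independent experiments. The splenocytes of R and P came from female Balb/c mice injected at 8 weeks of age with 4T1 cells and housed for 28 days, those of R had in addition been activated with anti-CD3/CD28 beads in the presence of IL2, and those of P had been held in saline. The comparison asks how genes of CSCsp respond to primed and to activated immune cells. With 1 library per condition no difference has a replicate check, an SD or a p-value, and the 95% intervals given below cover counting error only.

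The labels of P and N carry a doubt. The data of the library labelled P were deposited under a name that speaks of no treatment, and those of the library labelled N under a name that speaks of the saline of the P splenocytes. Libraries are therefore called by their labels, and if the labels were exchanged each direction between P and N would turn round and the values of R over N and R over P would trade places. They held about 19178982, 17887652 and 17894139 fragments in the libraries labelled R, P and N. Of 8 epithelial markers 7 had an FPKM of 1 or more in each library. The splenocytes of R and P were strained and washed away before RNA was taken, and N by its label had no co-culture. Traces of leukocyte RNA nevertheless differed between the libraries. Sums of the monocyte, macrophage and neutrophil markers below were higher in the library labelled N than in that labelled P. Lyz2, for example, had an FPKM of 28.9 in N and 0.313 in P. How this bears on the doubt about the labels was not tested. Among 15 monocyte and macrophage markers 5 had an FPKM of 1 or more in R, 3 in P and 4 in N, with summed FPKM of 88.6, 33.5 and 74.2. Among 9 neutrophil markers 5 did so in R, 1 in P and 5 in N, with sums of 22.0, 13.1 and 34.9, and among 6 pan-leukocyte markers 4, 2 and 4 in the same order. Most of these sums in P came from Cd68 (18.0), Cd14 (12.5) and Ltf (12.3), none of them 2-fold apart in a comparison. The pan-leukocyte markers above 1 in P were Lcp1 and Ptpn6, also not 2-fold apart. In P, 3, 4 and 1 markers of the 3 lists were listed at 0, against 2, 0 and 0 in N. S100a9, for example, had 0 fragments in P and 79 in N, and Ptprc 0 and 20. Of 10 T and NK cell markers only Gzmb reached 1, in the library labelled R, and Cd3e, which defines T cells, had 2 fragments in R and was listed at 0 in P and N.

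The chemokines CCL2 and CCL7 are small secreted proteins that attract monocytes through the receptor CCR2, and their release by tumors is a well known route by which monocytes enter breast cancers and become tumor macrophages. CX3CL1 is made as a membrane protein on a mucin-like stalk that can hold CX3CR1-bearing monocytes in place and, once cut off by metalloproteases, attracts them. CSF1 keeps monocytes and macrophages alive and dividing through its receptor CSF1R, and CCL20 attracts CCR6-bearing lymphocytes and dendritic cells.

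Ccl2 lay highest in the library labelled R and lowest in the library labelled P. Its FPKM was 39.7 in R (95% Poisson interval 36.6 to 43.0, 614 fragments), 3.26 in P (2.40 to 4.34, 47 fragments) and 11.5 in N (9.78 to 13.4, 165 fragments), and the 3 intervals did not overlap. Among the genes expressed in each library (FPKM of 1 or more), Ccl2 stood above 86.4% in R, 19.4% in P and 56.5% in N. The gene lies at chr11:82035577-82037452 on the plus strand (GRCm38) and has a single RefSeq transcript of 3 exons and 806 bases, of which 444 are coding. R exceeded N by 3.46-fold (2.91 to 4.14) and P by 12.2-fold (9.04 to 16.7), and the library labelled P was 3.51-fold lower than N (2.53 to 4.97). On the log2 scale with a pseudocount of 0.1 FPKM the differences were 1.78 (R over N), 3.57 (R over P) and -1.78 (P over N), where 98.7%, 99.4% and 0.6% of all genes measured lay below. In a bulk library, fewer cells that make a transcript and less of it per cell cannot be told apart. The summed leukocyte markers given above were lowest in the library labelled P as well. Within the monocyte and macrophage list Mpeg1 (24.5, 0.227 and 0.697 in R, P and N) and Ly6c2 (19.4, 1.03 and 2.06, at a shared locus) had the order of Ccl2. The other 13 markers summed to 44.8 in R, 32.3 in P and 71.5 in N. By FPKM alone 9 of them were highest in N. Some of these rest on few fragments, such as Adgre1, the defining macrophage marker, with 2 in each library. Lyz2 was lower in R than in N (ratio 0.225, 0.185 to 0.273). For Cd68 (19.2, 18.0 and 21.4) and Cd14 (17.1, 12.5 and 18.4) the R over N intervals included equal levels (0.787 to 1.02 and 0.826 to 1.05). The part of leukocyte RNA in the Ccl2 difference was not tested.

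Ccl7 followed Ccl2 at a lower level. It had an FPKM of 4.65 in R (3.63 to 5.86, 71 fragments), 0.274 in P (0.0747 to 0.702, 4 fragments) and 1.33 in N (0.802 to 2.08, 19 fragments). The intervals were again apart, although the value in P rests on 4 fragments. R was 3.49-fold higher than N (2.08 to 6.13) and 17.0-fold higher than P (6.34 to 64.0), and P was 4.86-fold lower than N (1.62 to 19.6). Ccl7 lies at chr11:82045712-82047523 on the plus strand, 8259 bases beyond the end of Ccl2, with 3 exons and 799 bases of which 291 are coding. Ccl2 carried 8.54 times the FPKM of Ccl7 in R (6.67 to 11.1), 11.9 times in P (4.35 to 45.5) and 8.61 times in N (5.34 to 14.7), with intervals that overlap between the 3 libraries.

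Both genes belong to the monocyte chemokine cluster of chromosome 11, and the genes further along it were low or not seen. Ccl11, an eosinophil attractant, Ccl12, another mouse ligand of CCR2, and Ccl1, which start 22.3, 66.3 and 141 kb from the start of Ccl2, were listed at 0 in the 3 libraries. Ccl8, 79.6 kb from Ccl2, had an FPKM of 1.89 in R (19 fragments), was listed at 0 in P and had 0.273 in N (2 fragments). Among the cluster genes Ccl2, Ccl7 and Ccl8 were thus the ones with any fragments, and each was highest in the library labelled R.

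**Figure D1:**
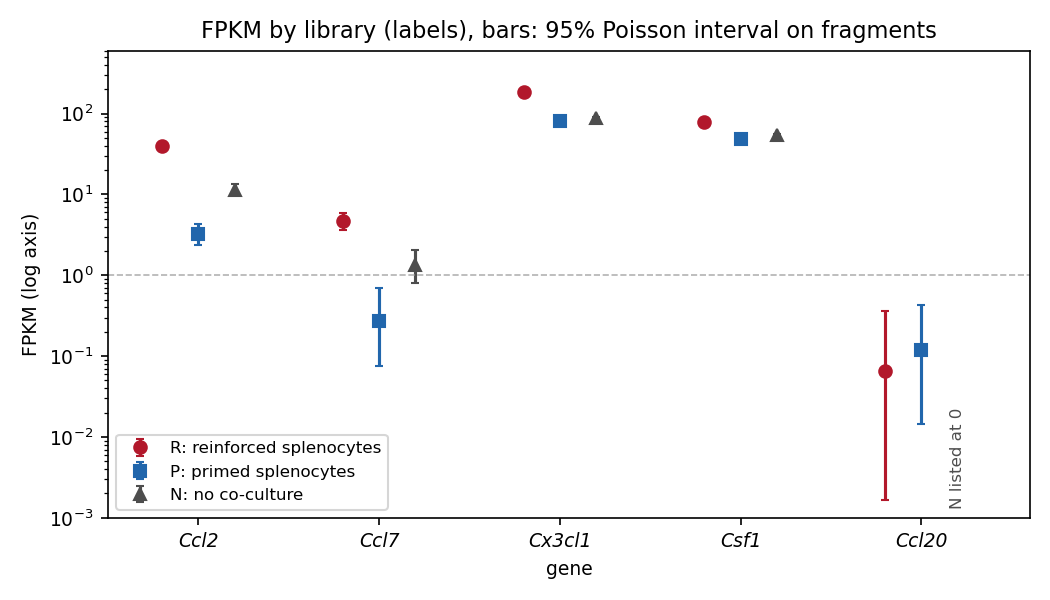
FPKM of the 5 genes on a log axis in the libraries labelled R, P and N, 1 library each, with bars for the 95% Poisson interval on fragments and a dashed line at an FPKM of 1. R lies above P and N for Ccl2 (39.7 against 3.26 and 11.5), Ccl7, Cx3cl1 and Csf1, while Ccl20 stays under the line, at 0.0653 in R and 0.12 in P, and is listed at 0 in N.

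Cx3cl1 was the most abundant of the 5 genes in each library. It had an FPKM of 184 in R (180.0 to 187, 11077 fragments), 80.8 in P (78.5 to 83.2, 4542 fragments) and 89.6 in N (87.1 to 92.1, 5037 fragments), above 97.6% of the genes expressed in R and 94.5% of those in P. The libraries labelled P and N lay near each other, and R stood apart from both. R was 2.05-fold higher than N (1.98 to 2.12) and 2.27-fold higher than P (2.2 to 2.35), whereas P was 1.11-fold lower than N (1.06 to 1.15). On the log2 scale these were 1.04, 1.19 and -0.15. The R over N value sits at the 2-fold line, and it was 0.99 on the log2 scale when the libraries were rescaled by their median ratio. Cx3cl1 lies at chr8:94772180-94782426 on the plus strand, with a single RefSeq transcript of 3 exons and 3143 bases, of which 1185 are coding.

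Set beside the other chemokine ligands, Cx3cl1 made up a large share of their transcripts. Over 40 chemokine ligands of the CC, CXC, XC and CX3C families the summed FPKM was 630 in R, 168 in P and 330 in N, and Cx3cl1 held 29.1%, 48.0% and 27.2% of it. It was the highest ligand in R and P and the second in N, after Cxcl1. The share was thus highest in P, the library with the lowest sum, although the Cx3cl1 level itself was highest in R. Ccl2 held 6.30% in R, 1.94% in P and 3.48% in N, as ligand 4, 7 and 6 by level, and Ccl7 was ligand 10, 13 and 15.

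Csf1 differed least of the 4 measured genes. It had an FPKM of 78.8 in R (76.8 to 80.8, 5974 fragments), 48.9 in P (47.3 to 50.6, 3546 fragments) and 54.0 in N (52.3 to 55.8, 3836 fragments). As with Cx3cl1, the libraries labelled P and N were close and R was higher, by 1.46-fold over N (1.40 to 1.52) and 1.61-fold over P (1.54 to 1.68), while P was 1.10-fold lower than N (1.05 to 1.16). Neither ratio with R reached 2-fold. The log2 differences were 0.54 (R over N), 0.69 (R over P) and -0.14 (P over N), above 91.1%, 92.9% and 19.9% of all genes measured.

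Counted over the 4 measured genes, 3 were at least 2-fold higher for R over N (Ccl2, Ccl7 and Cx3cl1) and none was lower, where 3.09% of 11204 genes were higher and 1.89% lower by the same rule. For P over N none was higher and 2 were lower (Ccl2 and Ccl7), where 0.521% of 11140 genes were higher and 1.55% lower (58 and 173 genes, but 201 and 311 on the TPM scale). The Ccl7 call rests on 4 fragments in P and passed the filter through N, and it ended with a pseudocount of 1, at a log2 difference of -0.87. For R over P Ccl2, Ccl7 and Cx3cl1 were again higher and none lower, where 4.16% of 11214 genes were higher and 1.69% lower. Ccl7 passed the filter there through R alone, with 4 fragments in P, so its call is a description. The median log2 difference of the 4 genes was 1.38 (R over N), -0.97 (P over N) and 2.38 (R over P), beside 0.08, 0.03 and 0.03 over all genes. The comparisons share libraries with each other and are not separate observations. The genes thus fell into Ccl2 and Ccl7, which differed between all libraries, and Cx3cl1 and Csf1, which differed mainly between R and the others.

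**Figure D2:**
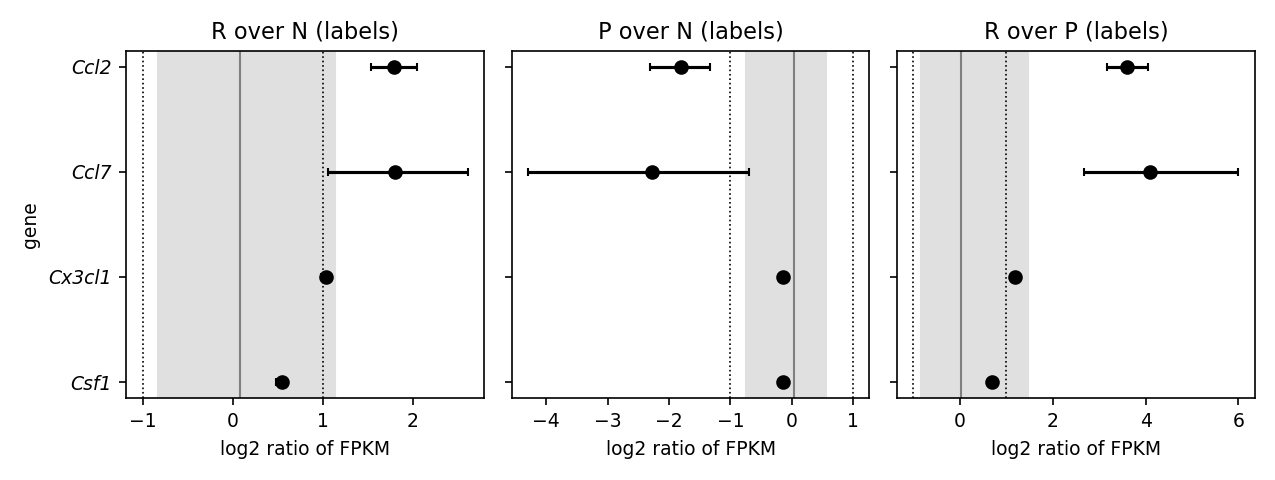
Log2 ratios of FPKM, without a pseudocount, for Ccl2, Ccl7, Cx3cl1 and Csf1 in the 3 comparisons as labelled, with bars for the exact 95% interval on fragments, where wider than the point. The grey band spans the central 95% of all genes measured (with a pseudocount of 0.1), the grey line is their median and dotted lines mark 2-fold. Ccl2 and Ccl7 points lie outside the band in each panel, Cx3cl1 and Csf1 inside it.

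Csf1 is read into several transcripts whose sixth exon differs in length. The long form of that exon, 1016 bases, carries the coding sequence of secreted CSF1 with the part that bears its glycosaminoglycan chain, and the short form, 131 bases, gives the CSF1 that stays longer on the cell surface. Transcripts with the long exon held an FPKM of 57.8 in R, 40.8 in P and 44.0 in N, and those with the short exon 21.0 in R, 8.14 in P and 10.1 in N. The short form thus held 26.7% of Csf1 in R, 16.6% in P and 18.6% in N. It was 2.09-fold higher in R than in N (1.89 to 2.31) and 2.58-fold higher in R than in P (2.32 to 2.88), and the long form 1.31-fold (1.26 to 1.37) and 1.42-fold (1.35 to 1.48). These values are StringTie's division of reads among overlapping transcripts, and the intervals do not hold the error of that division. Coverage of the 1016-base exon relative to the exon before it was 0.951 in R, 0.86 in P and 0.989 in N, and relative to the exon after it 0.685 in R, 0.6 in P and 0.775 in N. Both were lower in R than in N, where the estimated short share was higher in R, and both were lowest in P, where that share was lowest.

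**Figure D3:**
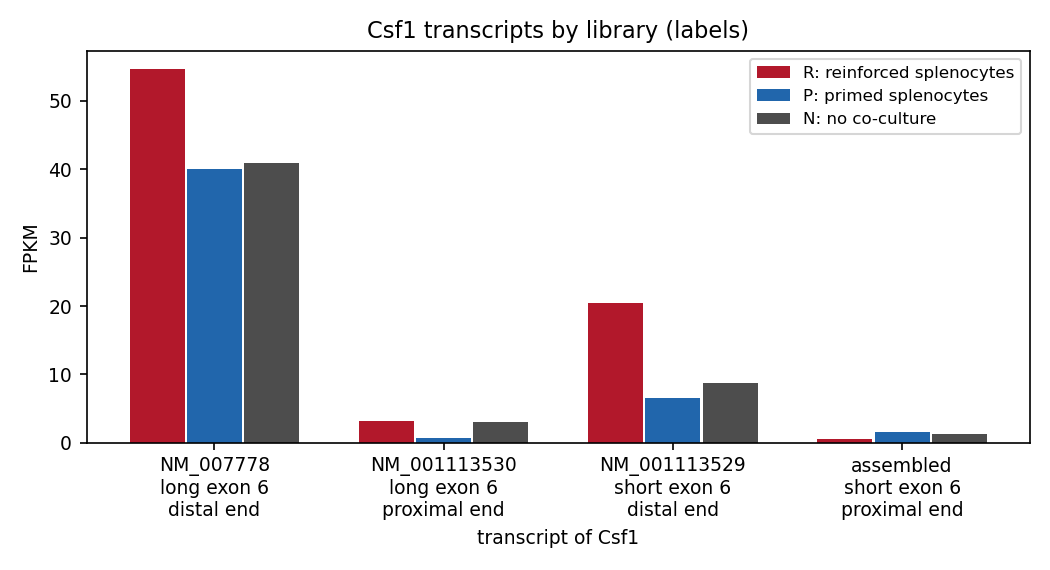
FPKM of the 4 Csf1 transcripts in the libraries labelled R, P and N, 1 library each and hence without error bars. The transcript with the long sixth exon and the distal end dominates at 54.6, 40.1 and 40.9, and the one with the short sixth exon and the distal end stands at 20.5 in R against 6.57 in P and 8.73 in N.

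The ends of Csf1 differed as well. Of the total, 95.3% in R, 95.3% in P and 91.9% in N was assigned to transcripts that end in the distal last exon of 2098 bases, which is non-coding, and the rest to a proximal end. The transcript with the long sixth exon and the proximal end had an FPKM of 3.13 in R, 0.702 in P and 3.03 in N, and an assembled transcript with the short sixth exon and the proximal end 0.553 in R, 1.57 in P and 1.33 in N. The assembled transcript carries no reference gene name of its own and was added to Csf1 by its locus, and with RefSeq transcripts alone Csf1 had 78.2, 47.3 and 52.7.

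The exons of Csf1 did not differ to the same extent between the libraries. Summed over transcripts and from the 5′ end, coverage per aligned base in R over N was 1.13, 1.18, 1.28, 1.30, 1.32, 1.27, 1.44 and 1.44 in exons 1 to 8 and 1.76 in the distal last exon. For R over P it was 1.13 in exon 1, between 1.39 and 1.78 in exons 2 to 8 and 1.70 in the distal last exon, and for P over N it lay between 0.728 and 1.04. The proximal last exon, with coverage of 2.34 in R, 2.6 in P and 3.06 in N, went the other way, with ratios of 0.766 against N and 0.9 against P for R. Along the transcripts with the distal end the excess of R over N was thus small in exon 1 and largest in the last exon, with a log2 difference between distal last and first exon of 0.64 (R over N), 0.59 (R over P) and 0.04 (P over N). Over 2143 genes with a single transcript the same quantity had a median of 0.10 when R was set against N (central 95% from -0.65 to 0.81) and 0.11 against P (-0.57 to 0.78), so that Csf1 lay within the range of other genes. This look at exons was chosen after the values were seen.

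The other genes were higher in R along their length. In Ccl2 the coverage ratio was 4.03, 3.72 and 2.92 against N in exons 1 to 3 and 12.6, 11.8 and 12.1 against P. In Cx3cl1 it was 2.15, 1.95 and 2.05 against N and 2.21, 2.15 and 2.28 against P. In Ccl7 it was 2.27, 2.28 and 5.44 against N, over the 19 fragments of N, and no exon of the 3 genes was lower in R than in P or N.

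**Figure D4:**
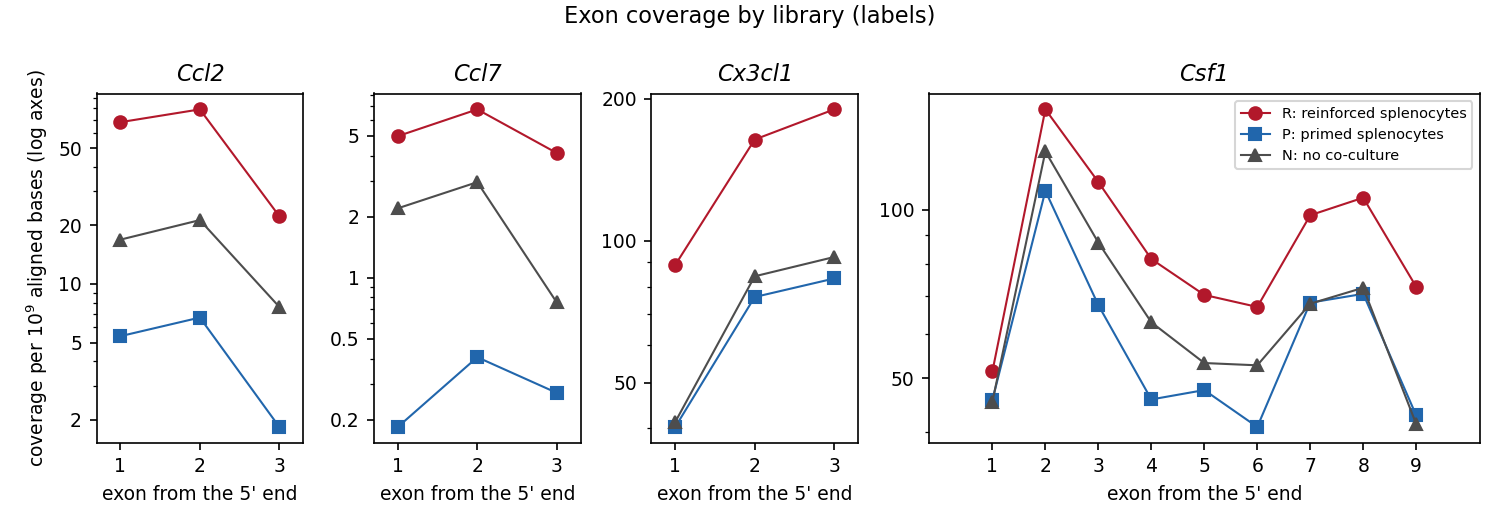
Coverage of each exon scaled by the aligned bases of the library (log axes, a scale for each gene) against exon number from the 5′ end, in the libraries labelled R, P and N. R lies above N in all exons shown, with a gap that widens along Csf1 from 1.13-fold in exon 1 to 1.76-fold in the distal exon 9, and P is below N throughout Ccl2 and Ccl7.

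Promoter sequence is shown for the 3 of the 5 genes matched in the RefSeq table (GRCm38.p6), which include the highest and the lowest in level. Ccl2 and Ccl7 had no entry there, so their promoters were not searched. The 250 bases before the RefSeq start were searched on both strands for a kB consensus, the form bound by NF-kB dimers, for AP-1 (TGANTCA) and for the paired core of an interferon response element. Csf1 and Ccl20 each held a kB match, in capitals below, and no match to any of the 3 was in the Cx3cl1 window. Printed are the bases that lie before any annotated exon of the gene, at chr3:107760568-107760719 (minus strand) for Csf1, chr1:83116516-83116765 (plus strand) for Ccl20 and chr8:94771930-94772008 (plus strand) for Cx3cl1.
Csf1: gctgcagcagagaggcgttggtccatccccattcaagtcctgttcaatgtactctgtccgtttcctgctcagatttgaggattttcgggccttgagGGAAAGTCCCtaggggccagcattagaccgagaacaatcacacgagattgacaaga
Ccl20: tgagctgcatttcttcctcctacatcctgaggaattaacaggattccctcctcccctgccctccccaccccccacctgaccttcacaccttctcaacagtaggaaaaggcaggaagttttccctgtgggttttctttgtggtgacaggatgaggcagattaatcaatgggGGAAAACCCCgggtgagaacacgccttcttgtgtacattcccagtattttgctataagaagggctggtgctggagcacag
Cx3cl1: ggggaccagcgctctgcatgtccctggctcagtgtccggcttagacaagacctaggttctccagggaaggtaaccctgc
The match lies 47 to 56 bases before the first exon of Csf1 as the files give it and 71 to 80 bases before that of Ccl20. Among 32851 promoters taken from RefSeq, 7.25% held the kB consensus, 6.75% the AP-1 and 2.98% the interferon response core. Csf1, expressed at 78.8 FPKM in R, and Ccl20, at the limit of detection, thus share the kind of match that Cx3cl1, the highest of the 5, lacks in this window.

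Ccl20 was at the limit of detection. It had 1 fragment in R (FPKM 0.0653), 2 in P (0.12) and was listed at 0 in N, all under the 0.196, 0.21 and 0.21 FPKM that 3 fragments would give in R, P and N. No ratio is given. A value near 0 in these files can be a failed estimate, since Hprt, a gene that all cells use, was listed at 0.0025 in R against 23.8 in P and 22.7 in N. Ccl20 lies at chr1:83116766-83119167 on the plus strand and has a pair of RefSeq transcripts of 4 exons, which differ by 3 coding bases.

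The receptors of these ligands were close to undetected. None of the 6 listed receptors reached an FPKM of 1 in a library. Ccr2, the receptor of CCL2 and CCL7, had 0.0686 in R (5 fragments), was listed at 0 in P and had 0.112 in N (7 fragments). Csf1r, the CSF1 receptor and a defining marker of macrophages, had 0.442 in R, 0.148 in P and 0.761 in N, at a locus it shares with another symbol. Cx3cr1 had 0.134, 0.165 and 0.277 in R, P and N, Ccr1 0.129, 0 and 0.341, Ccr6 a single fragment in N, and Ccr3 none. R was below N for Csf1r (ratio 0.58, 0.364 to 0.913) and Ccr1 (0.378, 0.133 to 0.96), while the intervals of Ccr2 (0.154 to 2.25) and Cx3cr1 (0.201 to 1.09) included equal levels.

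Atypical receptors and proteases that release ligands from the membrane were also listed. Ccrl2, an atypical receptor that displays the leukocyte attractant chemerin, had an FPKM of 7.81 in R, 1.74 in P and 2.64 in N. It was 2.96-fold higher in R than in N (2.34 to 3.77) and 4.48-fold higher than in P (3.4 to 5.99). Ackr1, Ackr2 and Ackr4, which scavenge chemokines, stayed under 1. The metalloproteases that cut CX3CL1 and CSF1 from the membrane differed little, Adam10 with 39.4 in R, 32.2 in P and 38.0 in N, and Adam17 with 27.2, 23.9 and 23.1. Neither was 2-fold apart in a comparison.

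Among the other colony stimulating factors Csf3, the neutrophil growth factor, was furthest apart. It had an FPKM of 217 in R, 22.8 in P and 59.2 in N and was 3.66-fold higher in R than in N (3.46 to 3.87) and 9.50-fold higher than in P (8.74 to 10.3), which puts it beside Ccl2 and not beside Csf1. Csf2, which acts on granulocytes and macrophages, had 5.50, 2.72 and 5.02. Il34, the other ligand of CSF1R, had 9.15, 9.10 and 8.86 in R, P and N, so that of the CSF1R ligands only Csf1 was higher in R beyond counting error.

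Several of the remaining CC chemokines had another order than Ccl2. Of 20 listed, 9 reached an FPKM of 1, and for R over N 1 was at least 2-fold higher (Ccl8) and 5 lower (Ccl3, Ccl4, Ccl6, Ccl9 and Ccl22), where 3.09% and 1.89% of all genes were. Ccl3, Ccl4, Ccl9 and Ccl22 reached 1 in N alone and Ccl8 in R alone, so that these counts are a description and no support for a direction. Ccl6 had 1.70 in R, 0.0702 in P and 6.38 in N, and Ccl22, which attracts regulatory T cells, 0.311, 0.0344 and 2.83. By the 2-fold rule 5 of 7 were lower in P than in N, where 1.55% of all genes were. By the same rule 3 of 5 were higher in R than in P, where 4.16% were. Those 5 reached 1 in N and not in P, and those 3 in R and not in P, so these counts too are a description. The macrophage and neutrophil marker Lyz2, with 6.51 in R, 0.313 in P and 28.9 in N, was likewise highest in N, and the part of leukocyte RNA in the values of these chemokines was not tested. Ccl2 and Ccl7 had another order than Lyz2, with R above N, an order that the monocyte and macrophage markers Mpeg1 and Ly6c2 also had. Ccl5, the most abundant of the list, had 12.8, 6.81 and 9.72.

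Of 16 listed CXC and XC chemokines 9 reached an FPKM of 1. By the 2-fold rule 3 were higher and 2 lower in R than in N, where 3.09% and 1.89% of all genes were. In P, 6 of 8 were at least 2-fold lower than in N, where 1.55% of all genes were. In R, 6 of 8 were at least 2-fold higher than in P, where 4.16% were. Cxcl9 reached 1 in R alone and Pf4 in N alone. The ones at least 2-fold higher in R than in N were Cxcl9, Cxcl10 and Cxcl11, which attract T cells through CXCR3. Cxcl5 was higher by less, at 1.72-fold (1.51 to 1.96). Cxcl10 had 101 in R, 7.00 in P and 21.7 in N, the order of Ccl2. Cxcl1, a neutrophil attractant, had 151, 41.4 and 127, low in P as Ccl2 was but nearly equal in R and N. Cxcl16, which like CX3CL1 is made as a membrane protein, had 30.4, 17.1 and 26.3.

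**Figure D5:**
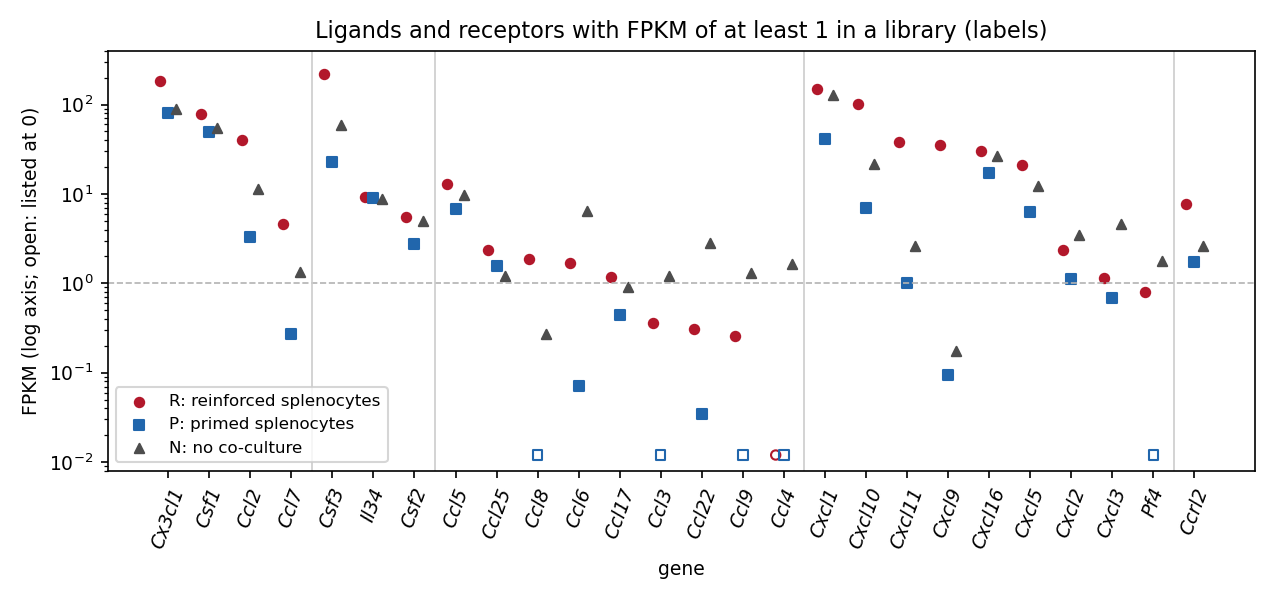
FPKM (log axis) in the libraries labelled R, P and N of the genes that reached 1 in a library, in blocks for Cx3cl1, Csf1, Ccl2 and Ccl7, the other colony stimulating factors, the other CC chemokines, the CXC chemokines and the receptor Ccrl2, with open symbols for values listed at 0. P is at or near the lowest in most columns, and R is above N for Ccl2 and Cxcl10 (39.7 against 11.5, and 101 against 21.7) but below it for Ccl6 and Ccl22 (1.70 against 6.38, and 0.311 against 2.83).

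Cytokines known to induce CCL2, CX3CL1 and CSF1 were listed with their receptors. Il1a had an FPKM of 27.4 in R, 4.51 in P and 9.88 in N, 2.77-fold higher in R than in N (2.45 to 3.14) and 6.07-fold higher than in P (5.13 to 7.22). Tnf had 2.07, 1.38 and 2.83 and Il1b 0.681, 0.355 and 1.95, both highest in N by FPKM. The R over N interval included equal levels for Tnf (0.521 to 1.02) but not for Il1b (0.203 to 0.58). Ifng and Il17a were listed at 0 in the 3 libraries, which hold RNA of strained spheroids and not of the splenocytes. All 8 listed receptor chains for these cytokines were above 1, with none 2-fold apart, and Tnfrsf1a, a TNF receptor, had 48.2 in R, 28.2 in P and 31.6 in N. Of 5 genes that act on the decay of chemokine and cytokine transcripts, only Zc3h12a was 2-fold apart, with 14.8 in R, 4.06 in P and 8.09 in N and 3.65-fold higher in R than in P (3.13 to 4.28).

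The genes nearest in pattern were taken by the distance between centred log2 values over the 3 libraries, among 7884 candidates with an FPKM of at least 5 in a library (7885 for Ccl7). For Ccl2 these were Cfb, complement factor B, at a distance of 0.13, Socs1, an inhibitor of cytokine signalling, at 0.281 and Csf3 at 0.305. Ccl7 lay nearer still to Ccl2, at 0.111, and after Ccl2 its nearest genes were Cfb at 0.206 and Cxcl10 at 0.348. Cfb had an FPKM of 14.3 in R, 1.06 in P and 3.58 in N, at a locus shared with another symbol, and Socs1 43.5, 3.54 and 9.82. For Cx3cl1 the nearest were C1rl, Platr22 and Nubp1, at 0.0152, 0.0161 and 0.019, and for Csf1 Slc20a2, Ltbp1 and Scap, at 0.00876, 0.00988 and 0.0148. Cx3cl1 and Csf1 lay 0.405 from each other, and Ccl2 lay 1.72 from Cx3cl1 and 2.04 from Csf1. With 3 libraries such distances are a description, and genes with small differences find near neighbours easily.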

How the data were processed

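RNA of CSCsp was sequenced in 3 libraries, grouped by their labels. The authors used HISAT2 2.2.0 for alignment and StringTie (2.1.3 in the notes, 2.1.5 in the files) for RefSeq and assembled transcripts. Per transcript, they deposited FPKM, TPM and coverage as text attributes. The notes name mm9, but 99.4% of 23360 symbols overlap their GRCm38 gene, so positions are given as GRCm38. For read filters and strand setting, no source used here says more. StringTie shares reads among overlapping transcripts, which makes single transcripts less certain than genes.

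FPKM was summed per gene over 34970 RefSeq and 9390 assembled transcripts, and 3130 assembled transcripts without a gene (10.6%, 12.2% and 12.1% of FPKM in R, P and N) were left out. Fragments were coverage times length over 300 bases, the aligned length of a read pair, and aligned bases came from coverage over FPKM. Intervals were exact Poisson (levels) and Clopper-Pearson (ratios) at 95%. A gene was 2-fold apart where log2 ratios with a pseudocount of 0.1 reached 1 either way and FPKM was at least 1 in either library. No test between conditions was possible with 1 library per condition. Named were the 5 genes, listed genes with an FPKM of at least 1 or that are receptors, and the 3 nearest in pattern, leaving out predicted genes, microRNAs and snoRNAs, and of listed genes the text gives a part. The genes and the 17 lists were chosen with earlier results of these data known. Of the promoter motifs searched, 1 is not reported here. Scripts were tested on simulated data. The 9 alternatives are described in the closing section. Software was SciPy 1.17.1, NumPy 2.4.6, Matplotlib 3.10.9 and pandas 2.3.3 under Python 3.11.15.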

Additional observations from a re-analysis of the deposited data

How the results depend on the processing

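Under 8 alternatives to the processing (TPM, pseudocounts of 1 and 0.01, median-ratio rescaling, the transcript of highest mean FPKM, RefSeq transcripts alone, no filter, and a filter of 5 FPKM) the 12 log2 differences of Ccl2, Ccl7, Cx3cl1 and Csf1 kept their direction, and only 4 moved beyond counting error: Ccl7 for R over P to 2.15 with a pseudocount of 1, and Csf1, on its highest transcript, to 0.42, -0.03 and 0.45 for R over N, P over N and R over P. The genes 2-fold apart for P over N were 1 in place of 2 with a pseudocount of 1 and with a filter of 5 FPKM, both without Ccl7, and 3 without a filter, where Ccl20 entered on 2 fragments. For R over N they were 2 in place of 3 with the rescaling (without Cx3cl1) and with the filter of 5, and for R over P 2 in place of 3 with that filter (both without Ccl7). Exchanging the libraries labelled N and P moved all 12 differences: P over N became 1.78 for Ccl2 and 1.94 for Ccl7, R over N took the values of R over P (3.57 in place of 1.78 for Ccl2, 3.67 in place of 1.73 for Ccl7) and the reverse, and it exchanged the counts over all genes, to 173 higher and 58 lower. Counts over all genes depended more on the processing. For R over N, with 346 higher and 212 lower, they were 527 and 344 with TPM, 619 and 412 with the highest transcript, 531 and 390 with RefSeq transcripts alone and 659 and 584 without a filter, and the lower ones 124 with a pseudocount of 1 and 88 with a filter of 5. For P over N, with 58 and 173, they were 201 and 311 with TPM, 22 and 98 with a pseudocount of 1, 313 and 361 with the highest transcript, 279 and 361 with RefSeq transcripts alone, 329 and 594 without a filter and 10 and 64 with a filter of 5. For R over P, with 466 and 190, they were 726 and 412 with the highest transcript and 892 and 564 without a filter, and the lower ones 375 with TPM, 83 with a pseudocount of 1, 380 with RefSeq transcripts alone and 84 with a filter of 5. The cause was not tested. No paired analysis was possible because each condition has 1 library. Depth limits Ccl7 in P (4 fragments) and Ccl20 (at most 2).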
